A study of Caenorhabditis elegans with 7 samples.

Results

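The genes described here are 6 membrane transporter genes of Caenorhabditis elegans, namely snf-5, slc-17.9, mfsd-12, pmp-3, mrp-6 and pgp-7. They were taken as the rows of the authors' deposited value table whose supplied annotation gives one of these symbols, and each symbol belonged to 1 row and 1 array spot. They are 6 of 781 genes with a named spot, on arrays of 23232 spots. The genes were chosen with their strain difference known, so that difference is given below as a description and not as a test of these genes.

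RNA came from whole larvae of the first larval stage (L1), 4 samples of the ahr-mutant strain, whose ahr gene the labels call nonfunctional, and 3 samples of the wild type. Larvae of both strains hatched from harvested eggs on plates that held E. coli and liquid. Each sample was labelled with Cy3 and measured on 1 spotted array read in 1 colour. The labels give no allele or age in hours, nor how many larvae made up a sample. They call the mutant samples biological samples, but do not say whether samples of either strain came from separate cultures. Where cultures were shared, the errors below measure only technical spread.

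The gene ahr-1 is the worm version of AHR, the aryl hydrocarbon receptor, a transcription factor that in mammals responds to foreign compounds and switches on genes for their breakdown. Transporters move substances over membranes and fall into families by how they are powered. Solute carriers use ion gradients or run down a gradient: the SLC6 family (snf genes in the worm) carries neurotransmitters and amino acids with sodium, the SLC17 family carries organic anions and phosphate, and the MFSD proteins belong to the major facilitator superfamily. ABC transporters burn ATP: the P-glycoproteins (pgp) and the multidrug resistance proteins (mrp) export lipophilic and conjugated compounds from cells, and the pmp genes encode relatives of the ABC transporters of the peroxisome membrane.

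Each array had between 21942 and 22593 positive signals with medians of 52277 to 90919 intensity units. The file of ahr-mutant replicate 1 lists its spots in another order, with rank correlations to the other arrays of -0.0117 to 0.0354 as deposited. After its rows were put back in order by signal, these correlations were 0.68 to 0.811, against 0.632 to 0.804 among the other arrays. Since the rows were placed by likeness to those arrays, the higher correlations are no check of the placing. The spots of 5 of the 6 transporters were found in that file, and pgp-7 was not, so pgp-7 has 3 mutant values. For slc-17.9 and mfsd-12 the signal found there is the one that the authors' table implies, while the table has no value of this array for the other 4 genes. Of 42 tissue marker genes listed for intestine, neurons, muscle, hypodermis, pharynx, excretory cell and germ line, 1 had a named spot (msp-78), so the tissue composition of the larvae could not be checked. In whole larvae, fewer cells of a type and less RNA per cell cannot be told apart.

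The direction of the strain difference was not shared by the 6 genes. snf-5 and the 3 ABC transporter genes pmp-3, mrp-6 and pgp-7 had lower means in the mutants, and slc-17.9 and mfsd-12 had higher means. The strains did not overlap for 3 of the 4 genes with lower means, where 4.52% of all 22513 spots tested were lower without overlap. They did not overlap for either gene with a higher mean, where 5.4% of all spots were. In the limma fit over all spots, 1 of the 6 genes, snf-5, passed an adjusted p of 0.05, which 0.00888% of spots (2 of 22513) did. That call was lost under median scaling, a normexp background correction, quantile normalization after the rows were re-ordered, removal of the dimmest spots, either adjustment for slide position and without any 1 of the 7 arrays. Since the genes were picked on this contrast, these counts say nothing about the genes as a group. Levels below are quantile-normalized log2 signals, in which 1 unit is a doubling, and levels of different spots are not comparable.

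**Figure D1:**
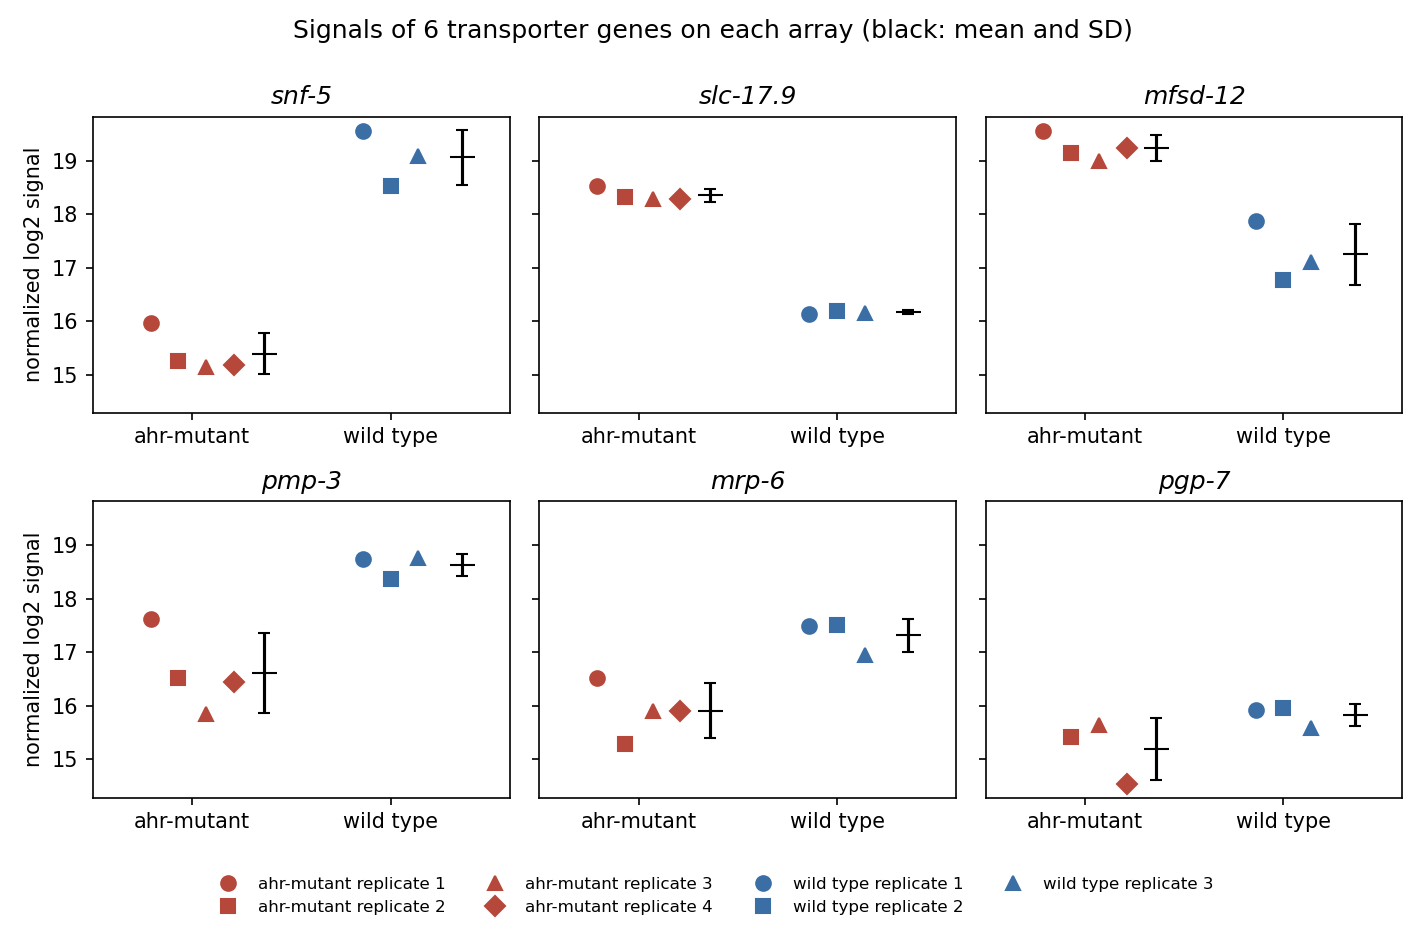
Normalized log2 signal of the 6 transporter genes on each array, ahr-mutant arrays on the left of each panel and wild-type arrays on the right, with the mean and SD of each strain in black. The strains are apart for every gene except pgp-7, where ahr-mutant replicate 3 (15.64) lies above wild-type replicate 3 (15.59).

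snf-5 encodes an SLC6 family member that has been described in the worm as an amino acid transporter. Its deposited intensities were 55947, 47585, 42064 and 47203 on ahr-mutant arrays 1 to 4, against 908776, 277991 and 444496 on wild-type arrays 1 to 3. All 4 mutant signals lay below the medians of their arrays (62372, 88842, 90919 and 83351). They were at 2.22 to 3.53 times the 1st percentile of positive signals, and the wild-type signals at 17.7 to 59.3 times it. After normalization the mutants read 15.96, 15.26, 15.15 and 15.19 and the wild type 19.56, 18.53 and 19.08. The gap between the highest mutant and the lowest wild-type array was 2.58 log2 units, wider than the range within the mutants (0.81) or within the wild type (1.03). The mean was 15.39 ± 0.38 in the mutants (SD, n = 4) and 19.06 ± 0.51 in the wild type (SD, n = 3), a log2 difference of -3.67 ± 0.38 (SE), or 12.7-fold lower in the mutants. No other of the 22513 spots had a log2 difference as low. Since low signals may hold background, the fold can be understated, here and for the other genes with low signals.

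The ABC transporter gene pmp-3 belongs to the peroxisomal family and is in common use as a reference gene in worm quantitative PCR. Its intensities were 190215, 119630, 73325 and 102107 on the mutant arrays and 508592, 249705 and 362593 on the wild-type arrays. Normalized levels were 17.63, 16.53, 15.84 and 16.44 in the mutants, against 18.74, 18.38 and 18.77 in the wild type. The mutants ranged over 1.79, with replicate 3 at the low end and replicate 1 at the high end, whereas the 3 wild-type arrays lay within 0.39 of each other. The mean was 16.61 ± 0.75 in the mutants (SD, n = 4) and 18.63 ± 0.21 in the wild type (SD, n = 3). The log2 difference was -2.02 ± 0.44 (SE), 4.06-fold lower in the mutants, and did not pass over all spots. Without replicate 3 it was -1.76, and without replicate 1 it was -2.36.

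mrp-6 encodes an ABCC family member, the group of exporters that in mammals carries glutathione and other conjugates out of cells. Its intensities were 85825, 48540, 77127 and 73902 on the mutant arrays, against 183666, 134775 and 113829 on the wild-type arrays. The mutant signals lay at 2.89 to 5.41 times the 1st percentile of their arrays, and only that of replicate 1 lay above its array's median (62372). After normalization these were 16.53, 15.29, 15.90 and 15.91 in the mutants and 17.49, 17.52 and 16.96 in the wild type. The strains were 0.43 apart at their nearest arrays, less than the range of 1.25 within the mutants. The mean was 15.91 ± 0.51 in the mutants (SD, n = 4) and 17.32 ± 0.31 in the wild type (SD, n = 3), a log2 difference of -1.42 ± 0.38 (SE), 2.67-fold lower in the mutants and not past the threshold. Over all spots, 406 had a log2 difference at least as low.

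pgp-7 encodes a P-glycoprotein, and the WBcel235 gene table has the related genes pgp-5, pgp-6 and pgp-8 among the 3 protein-coding genes on each side of it. Whether its spot also binds their transcripts was not tested. Its intensities were 53751, 62847 and 30822 on mutant arrays 2 to 4 and 51794, 47784 and 47728 on the wild-type arrays, so the deposited signals of both strains interleave. All lay below the medians of their arrays, though not far below on wild-type arrays 1 and 2 (medians 59138 and 52277). They were at 1.45 to 3.43 times the 1st percentile in the mutants and 2.78 to 3.38 times in the wild type. Normalized levels were 15.42, 15.64 and 14.54 in the mutants, against 15.92, 15.97 and 15.59 in the wild type. The strains overlapped by 0.05 log2 units. The log2 difference of -0.63 ± 0.41 (SE; n = 3 each) rested much on ahr-mutant replicate 4, and was -0.30 without it.

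slc-17.9 is an SLC17 family member. Its intensities were 362413, 392245, 454659 and 294765 on the mutant arrays, against 60679, 55246 and 68922 on the wild-type arrays. The wild-type signals lay at 3.52 to 4.01 times the 1st percentile of their arrays, just above the array medians (59138, 52277 and 66600). Normalized levels were 18.53, 18.32, 18.28 and 18.28 in the mutants and 16.14, 16.19 and 16.16 in the wild type. The arrays of each strain lay unusually close together: the range was 0.25 in the mutants and 0.05 in the wild type, with a gap of 2.09 between them. The SD within strains was 0.09, and 0.124% of all spots had a smaller one, where the median spot had 0.55. The mean was 18.35 ± 0.12 in the mutants (SD, n = 4) and 16.17 ± 0.03 in the wild type (SD, n = 3), a log2 difference of 2.18 ± 0.29 (SE). This is 4.54-fold higher in the mutants and did not pass over all spots, where 76 spots had a difference at least as high. limma's SE shares spread over all spots and so is wider than the spread of these 7 arrays alone.

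mfsd-12 is the worm member of a major facilitator group whose mouse and human counterpart acts in the import of cysteine into lysosomes and pigment organelles. Its intensities were 757266, 660005, 729416 and 564988 on the mutant arrays and 252404, 80391 and 123870 on the wild-type arrays. Normalized levels were 19.55, 19.14, 19 and 19.23 in the mutants, against 17.87, 16.76 and 17.11 in the wild type. The range was 0.56 in the mutants and 1.11 in the wild type, the more variable strain here, and wild-type replicate 1 lay nearest to the mutants. The mean was 19.23 ± 0.24 in the mutants (SD, n = 4) and 17.25 ± 0.57 in the wild type (SD, n = 3). The log2 difference was 1.98 ± 0.36 (SE), 3.95-fold higher in the mutants, without passing over all spots. Leaving out single arrays gave 1.74 (without wild-type replicate 2) to 2.30 (without wild-type replicate 1).

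ahr-mutant replicate 1, whose rows were re-ordered, read highest of the mutants for all 5 genes found in its file. Without it the log2 differences were -3.85 for snf-5, -2.36 for pmp-3, -1.63 for mrp-6, 2.13 for slc-17.9 and 1.88 for mfsd-12. The genes with lower means were thus farther from the wild type without this array, and those with higher means somewhat nearer. In the authors' deposited table, where values are ratios to a row constant, mutants 2 to 4 had 0.597, 0.492 and 0.632 for snf-5, against 16.8, 5.97 and 7.43 in the wild type. For pgp-7, the gene with the smallest difference, the authors' deposited table gives 0.918, 1 and 0.562 in mutants 2 to 4 and 1.3, 1.4 and 1.09 in the wild type. Over mutants 2 to 4, the mean log2 differences of the authors' deposited table were -3.99 for snf-5, -2.48 for pmp-3, -1.70 for mrp-6 and -0.65 for pgp-7. Over all 4 mutants they were 2.14 for slc-17.9 and 1.85 for mfsd-12. All 6 have the sign found from the array files. The ratios are the same intensities rescaled, so this shared sign is no independent check.

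Where a spot lies on the slide moved with the direction. The spots were taken as 48 blocks of 22 by 22 spots in 12 slide rows of 4 blocks. snf-5 and pmp-3 lie in slide row 1, mrp-6 in slide row 2 and pgp-7 in slide row 8, and the genes with higher means in slide row 10 (mfsd-12) and slide row 11 (slc-17.9). Of the other table spots in slide row 1, 83 of 84 were lower in the mutants, and in slide row 2 122 of 126 were. In slide row 8, 26 of 41 other table spots were lower. In slide row 10, 99 of 102 other table spots were higher, and in slide row 11 all 99 of 99. The spots outside the table had median log2 differences of -0.47 in slide row 1, -0.34 in slide row 2, 0.37 in slide row 10 and 0.51 in slide row 11, in the direction of the table spots there. In slide row 8 their median was 0.11, against the direction of most table spots.

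The snf-5 and pmp-3 spots touch, 1 row and 1 column apart in the same block. Each has 8 touching spots with values, and all of these were lower in the mutants. Around snf-5 their log2 differences ran from -2.02 (the pmp-3 spot) to -0.53, with a median of -0.90. Around pmp-3 they ran from -3.67 (the snf-5 spot) to -0.48, with a median of -1.17. In a window of 23 by 23 spots around snf-5, the 394 spots outside the table had a median of -0.68 with quartiles of -1.03 and -0.35. None of these 394 was as low as snf-5, which follows from no other tested spot being as low. In the window around pmp-3, which largely shares these spots, 1 of 394 was as low as pmp-3, and the median was also -0.68. The window counts, here and below, leave out all table spots, among them the snf-5 spot, which was lower than pmp-3. Around mrp-6, 21 of 357 surrounding spots were at least as low as mrp-6, whose own value of -1.42 compares with a median of -0.47 around it. Around slc-17.9, 2 of 383 surrounding spots were at least as high (median 0.51), and around mfsd-12 none of 428 was (median 0.31). pgp-7 went against its surroundings, where the median was 0.18 and 6 of 335 spots were at least as low.

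**Figure D2:**
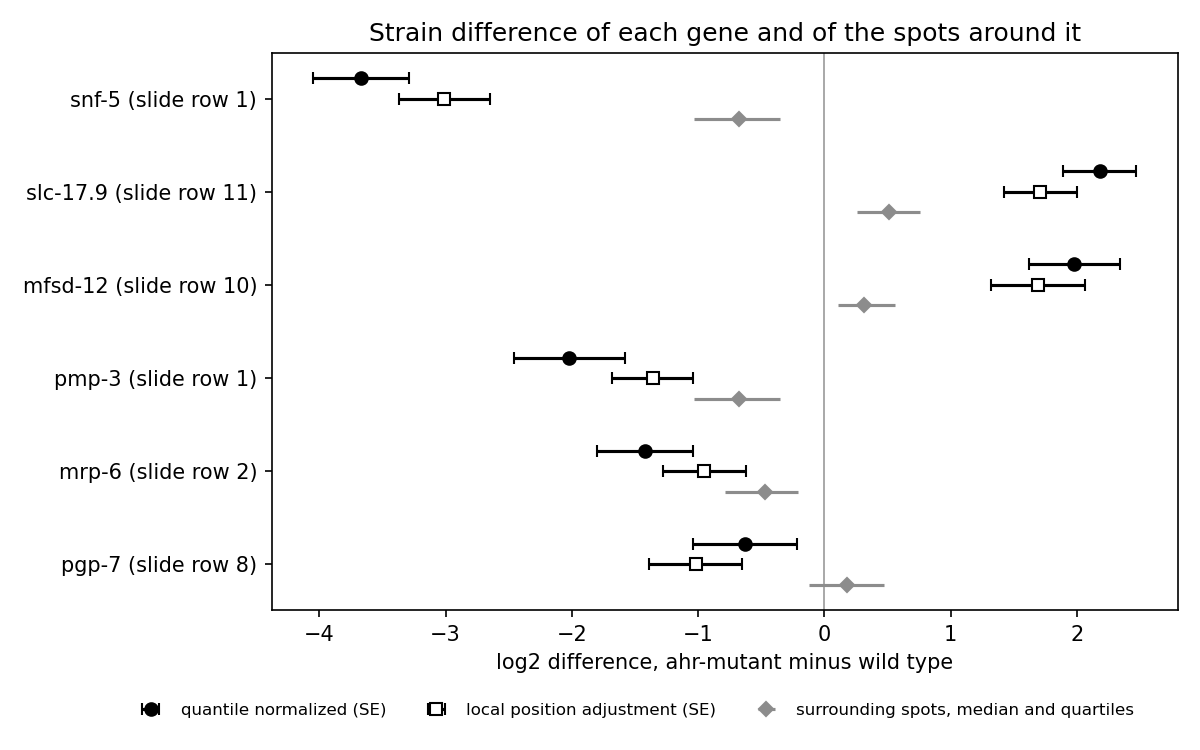
Log2 difference between ahr-mutant and wild type for each of the 6 genes, as quantile normalized (filled circles, SE) and with the local position adjustment (open squares, SE), and the median and quartiles of the surrounding spots outside the table (grey diamonds). snf-5 lies at -3.67 and -3.01 where its surroundings have -0.68, and pgp-7 alone moves away from 0 with the adjustment.

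The arrays that differed most around these spots can be named. Around snf-5, ahr-mutant replicate 3 deviated from the mean of the arrays by -1.19 log2 units, and mutants 1, 2 and 4 by 0.21, -0.12 and -0.14. The wild-type arrays read 0.55, 0.40 and 0.10 above it there. Around mrp-6 replicate 3 was again lowest, at -0.67. Around slc-17.9 and mfsd-12 the same array read highest, at 0.55 and 0.37, and all wild-type arrays were below 0, between -0.34 and -0.04. Without ahr-mutant replicate 3 the log2 difference was -3.59 for snf-5, 2.21 for slc-17.9 and 2.06 for mfsd-12.

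**Figure D3:**
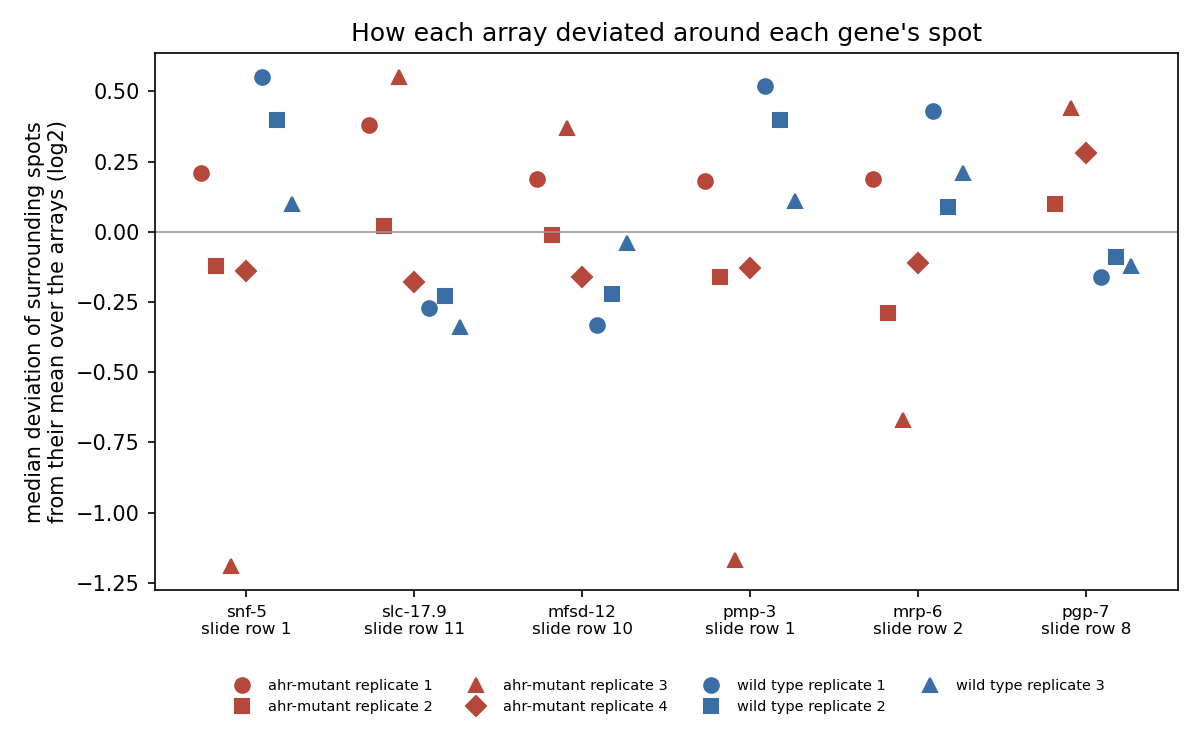
Median deviation of the spots surrounding each gene's spot from their mean over the arrays (log2), 1 point per array, ahr-mutant in red and wild type in blue. ahr-mutant replicate 3 is lowest around snf-5, pmp-3 and mrp-6 and highest around slc-17.9 and mfsd-12; pgp-7 has no point for ahr-mutant replicate 1.

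With each array's local deviation subtracted, all 6 genes kept their sign. snf-5 was at 15.75, 15.38, 16.34 and 15.34 in the mutants, against 19.01, 18.13 and 18.98 in the wild type, 8.03-fold lower (log2 difference -3.01 ± 0.36, SE). pmp-3 was 2.56-fold lower (-1.36 ± 0.32, SE), and its SD within the mutants was 0.39 (n = 4), against 0.75 without the adjustment. mrp-6 was 1.93-fold lower (-0.95 ± 0.33, SE). slc-17.9 was 3.27-fold higher (1.71 ± 0.29, SE), while its tight mutant values spread out to an SD of 0.32 (n = 4). mfsd-12 was 3.23-fold higher (1.69 ± 0.37, SE). pgp-7 was 2.03-fold lower (-1.02 ± 0.37, SE; 1.54-fold without the adjustment), with 15.32, 15.21 and 14.27 in the mutants and 16.08, 16.06 and 15.71 in the wild type, which no longer overlap. The strains were then apart for all 6 genes, where 4.58% of spots were lower and 4.48% higher without overlap. None of the 6 passed an adjusted p of 0.05 in the adjusted limma fit, in which 2 other spots did. ahr-mutant replicate 1 was then the highest mutant for 1 of the 5 genes rather than for all. The part of slide position in the differences was not tested beyond these adjusted values.

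Another 14 transporter genes stand in the table's annotation, 11 of them with a matched spot. They were listed by gene family and not by how they moved. None passed over all spots (limma), 8 of the 11 had an unadjusted p under 0.05 (7.51% of all spots did), 5 lower and 3 higher in the mutants. Means were lower for 6 and higher for 5, and the median log2 difference was -0.51, against -0.52 over the 781 named genes and 0.016 over all spots tested. How the table's rows were chosen is not given in the sources used, and these counts single out nothing about transporters.

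Among amino acid and organic solute carriers, slc-36.4, of the proton-coupled amino acid transporter family, had 18.14, 18.13, 18.45 and 18.13 in the mutants, against 19.63, 20.33 and 19.30 in the wild type. It was 2.91-fold lower (log2 difference -1.54 ± 0.35, SE), or 2.71-fold when adjusted for slide position. Its strains were 0.85 apart, the widest gap among the 11. slc-46A, of the proton-coupled folate transporter family, was 2.37-fold lower (-1.25 ± 0.42, SE; 1.96-fold with the adjustment). slc-17.7, a family relative of slc-17.9, differed the other way from it, 2.24-fold lower in the mutants (-1.16 ± 0.41, SE; 3 mutants), and 1.52-fold lower with the adjustment. It lies in slide row 2 and slc-17.9 in slide row 11, so their directions are also those of the position. Around slc-17.7, 43 of 360 spots outside the table were at least as low. snf-3, the betaine transporter of the same family as snf-5, was named for that kinship after its values were seen. It read 15.34, 15.48, 15.42 and 15.45 in the mutants, against 15.10, 14.84 and 14.34 in the wild type, 1.58-fold higher, and 1.18-fold higher with overlapping strains after the adjustment. Its wild-type signals lay at 1.2 to 1.93 times the 1st percentile of their arrays, near the floor. Its spot is in slide row 11 and that of snf-5 in slide row 1, so this pair also differs in position.

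Among metal and ion transporters, the ZIP family gene zipt-13 was 2.25-fold lower (-1.17 ± 0.37, SE) and the anion transporter gene sulp-2 1.72-fold lower (-0.78 ± 0.33, SE). Adjusted for slide position, zipt-13 was 1.71-fold and sulp-2 1.53-fold lower. The sodium-calcium exchanger gene ncx-3 was 2.00-fold higher (1.00 ± 0.33, SE) and 1.40-fold higher with the adjustment, with wild-type signals at 1.47 to 2.25 times the 1st percentile. Among carriers of internal membranes, the nucleotide sugar transporter gene nstp-10 was 2.31-fold higher (1.21 ± 0.37, SE), and ant-1.3, a mitochondrial adenine nucleotide translocase gene, 2.22-fold higher (1.15 ± 0.38, SE). The wild-type signals of nstp-10 lay at 1.94 to 2.07 times the 1st percentile. Adjusted, nstp-10 was 1.89-fold and ant-1.3 1.77-fold higher. The lower ones lie in slide rows 2 and 6 and the higher ones in slide rows 9 to 11, so their directions are also those of the position. The other 3 genes of the list have no matched spot, and in the authors' deposited table the peroxisomal ABC gene pmp-1 has a log2 difference of -1.59, zipt-11 of 0.70 and slc-25A32 of 0.15.

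**Figure D4:**
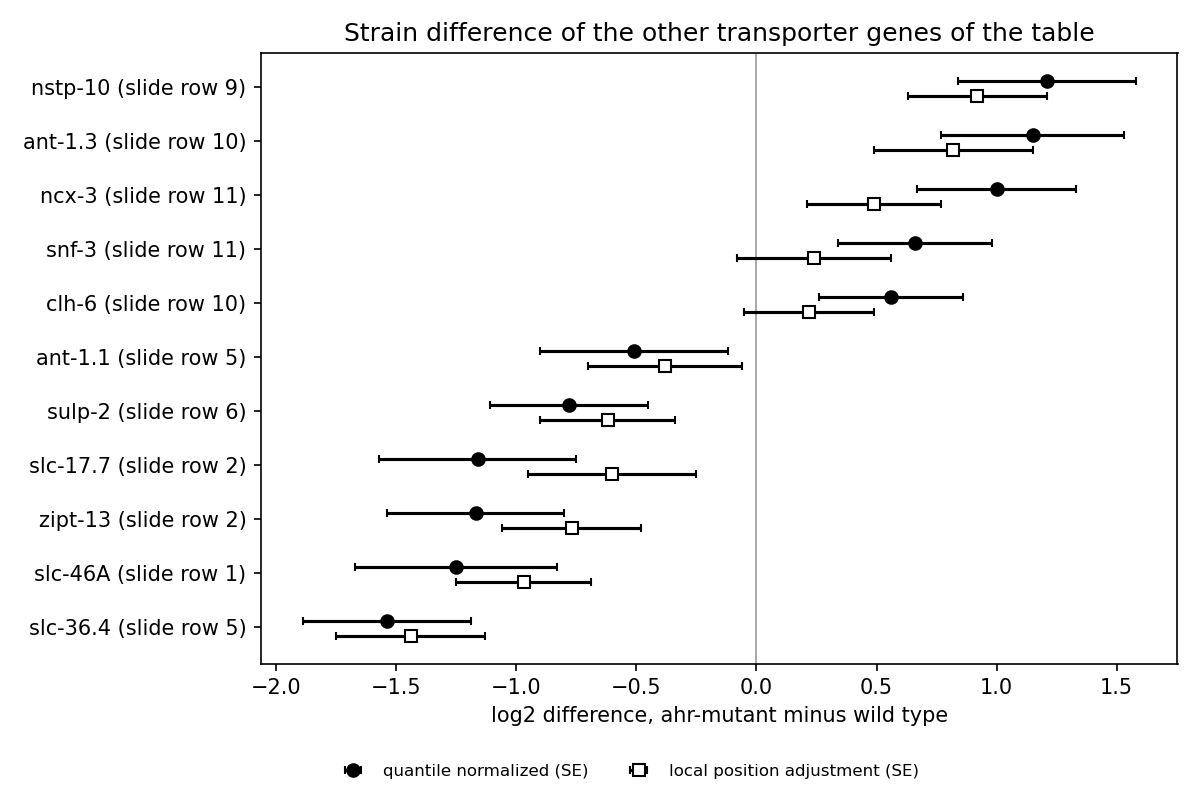
Log2 difference between ahr-mutant and wild type for the 11 other transporter genes with a matched spot, as quantile normalized (filled circles) and with the local position adjustment (open squares), both with SE. The values run from 1.21 for nstp-10 to -1.54 for slc-36.4, and each is nearer to 0 with the adjustment.

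The named genes whose profiles over the arrays were most like those of the transporters were found as the root mean square distance between mean-centred log2 levels, over 775 other named genes. For snf-5, spl-2 (0.63) and Y59E9AL.5 (0.64) were nearest over 7 arrays, with log2 differences of -2.67 and -2.73, both in slide row 5 and not in snf-5's slide row 1. The distance includes the size of the strain difference, which for snf-5 (-3.67) was the lowest of all spots tested. Its larger distances therefore say little about the shape of its profile. pmp-3 was nearest to C25D7.5 (0.21) and C26E1.1 (0.26), and mrp-6 to C06E4.2 (0.19) and grp-1 (0.24), all over 7 arrays and all in slide row 2. slc-17.9 was nearest to Y38H8A.4 (0.25) and taap-1 (0.28), over 7 arrays and both in its own slide row 11. mfsd-12 was nearest to F55E10.2 (0.19, 6 arrays; slide row 10) and srx-77 (0.29, 7 arrays; slide row 12). pgp-7 was nearest to wars-1 (0.08; slide row 3), which encodes a tryptophanyl-tRNA synthetase, and W06G6.11 (0.15; slide row 8), over 6 arrays each. These distances are a description of arrays that share strain, slide position and normalization.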

How the data were processed

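Each deposited array file holds 1 linear intensity per spot, per the file headers a signal. Which scanner and spot software were used, and whether background was subtracted, is not given in the sources used. The authors' deposited table of 1290 rows holds a ratio per row and array: for 1080 rows matched by value (within 0.0001 on the log2 scale), each is the deposited intensity times 1 constant per array over 1 constant per row. Blanks, zeros and negative values were left out.

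Rows of ahr-mutant replicate 1 follow source plates of 384 wells. They were placed by aligning signals with the mean of the other arrays. Segments of at least 100 spots with a rank correlation of at least 0.7 were kept, less 10 spots at each end, and 1 segment was set aside because 5 of 16 positions known from exact table values lay elsewhere. In all, 21054 spots (90.6%) were placed. Of 364 known positions, 326 were found by signal and 0 were put elsewhere. These positions also decided which segment was set aside, so the count of 0 is partly fixed by that step. The kept segment of rows 1 to 1171 held 0 known positions and was not checked in this way.

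Quantile normalization of the log2 intensities came before replicate 1 was placed. limma 3.58.1 in R 4.3.3 compared the strains over 22513 spots with at least 2 values in each, two-sided, with Benjamini-Hochberg adjustment, and was tested on simulated data. The local position adjustment subtracts, per array, the median deviation of spots outside the table within 11 spots on each side. The number of arrays limits the precision. Genes named are the 6 transporters, for each the 2 most like genes, and the 8 other transporters with the largest differences, with exceptions stated. The genes, lists, settings and tests were chosen with earlier results of these data known. Annotation gave 1 gene for 961 rows, all present in the WBcel235 gene table. The genome build used for the array design is unknown here, so coordinates are left out.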

Additional observations from a re-analysis of the deposited data

Results flagged for a closer look

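Among the transporters with 4 mutant values (15 genes), 3 genes had 1 mutant array standing apart from the rest, a gap that chance gives for about 1 gene in 20. For snf-5 the array was replicate 1, the highest at 15.96 (normalized log2). For slc-17.9 it was also replicate 1, the highest at 18.53. For slc-36.4 it was replicate 3, the highest at 18.45. With the local position adjustment, the highest mutant was replicate 3 for snf-5 (16.34) and replicate 4 for slc-17.9 (18.46). For slc-36.4 it was still replicate 3 (18.56). Whether an array stood apart was not tested on the adjusted values.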

How the results depend on the processing

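The 6 strain differences kept their sign under the alternatives run for them. These were median scaling, quantile normalization after re-placing, normexp, both position adjustments, placing the set-aside segment and leaving out single arrays. The 6 strain differences also kept it with the deposited table's own values, which are the same intensities rescaled. With single arrays left out they ran from -3.93 to -3.41 for snf-5, 2.13 to 2.21 for slc-17.9, 1.74 to 2.30 for mfsd-12, -2.36 to -1.76 for pmp-3, -1.63 to -1.21 for mrp-6 and -0.85 to -0.30 for pgp-7. They moved by more than the spread within strains with normexp for snf-5 (-4.33), slc-17.9 (2.47) and pgp-7 (-1.08). They did so with the local position adjustment for snf-5 (-3.01), slc-17.9 (1.71), pmp-3 (-1.36) and mrp-6 (-0.95), and with block medians subtracted for snf-5 (-3.15) and slc-17.9 (1.80). The smallest adjusted p over all spots was 0.0495 (limma), close to the threshold, and over the alternatives 0.022 to 0.312. Median scaling, normexp, quantile normalization after re-placing, leaving out the dimmest spots (a share of 0.25) and leaving out any 1 of the 7 arrays each gave 0 spots past the threshold, against 2, and 0 of the 6 genes, against 1. The position adjustments gave 2 spots and 0 of the 6 genes. Why the counts fell was not tested for any of these settings. The counts of the 6 genes were added after the data were seen. The other transporters stayed at 5 higher and 6 lower under the same alternatives except the deposited table's values, which were not run for these counts. The labels number the samples 56, 60, 62 and 54 for ahr-mutant replicates 1 to 4. Those of wild-type replicates 1 to 3 are 59, 61 and 63. The strains share none of these sample numbers, and no paired analysis was run. Low signals limit what folds can show. Relative to the 1st percentile of their arrays, low ones were the wild type of snf-3 (1.2 to 1.93 times), ncx-3 (1.47 to 2.25) and nstp-10 (1.94 to 2.07). The mutants of snf-5 and both strains of pgp-7 also lay below the medians of their arrays. The mutants of mrp-6 (2.89 to 5.41) did so except on replicate 1, and the wild type of slc-17.9 (3.52 to 4.01) lay just above the medians.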
